A study of Rattus norvegicus with 35 samples.

Results

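Whole rat retinas 7 days after intraorbital nerve transection (IONT 7 d) were set against retinas of naive rats. The members were chosen by their titles: 3 IONT 7 d arrays and 3 naive arrays (A to C, numbered replicates 1 to 3), together 6 of the 35 arrays of the series. The naive arrays D and E (replicates 4 and 5) served as a check. All rats were adult female Sprague-Dawley animals. In the IONT 7 d group the left optic nerve was cut inside the orbit, close to the eye, after the dura had been opened along its length to spare the retinal vessels, and the left retina was taken 7 days later. The naive rats were not operated on, so these data hold no retinas from rats with the surgery but an intact nerve. For 2 further comparisons the series gave 3 arrays taken 48 h after the same transection (IONT 48 h) and 3 arrays taken 7 days after intraorbital nerve crush (IONC 7 d), in which the nerve was crushed farther from the eye. RNA from 4 retinas of different rats was pooled for each Affymetrix RAE230.2 array, so that n counts pools and the spread between arrays is the spread between pools.

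Retinal ganglion cells (RGCs) are the output neurons of the retina, and their axons form the optic nerve. Transection cuts the axon of every RGC at once, and most of the cells die in the following weeks, while photoreceptors, bipolar cells and most amacrine cells have no axon in the nerve. Müller glia and astrocytes respond to such damage by gliosis, and microglia take up the debris. In an extract of the whole retina, a lower signal can come from fewer cells of a type or from less RNA per cell, and the 2 cannot be told apart here.

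All values are log2 GCRMA signals of 1 probe set per gene, a scale on which 1 unit is a 2-fold difference. They compare 1 gene between arrays and do not rank genes against each other. A gene was called higher or lower when the limma fit gave a Benjamini-Hochberg adjusted p under 0.01 over the 31042 tested probe sets, a log odds (B) above 0 and at least a 1.2-fold difference. Differences are IONT 7 d minus naive A to C and carry the standard error (SE) of that fit. By this rule 1549 probe sets were called (4.99%), 734 higher (2.36%) and 815 lower (2.63%) after IONT 7 d. Among the 14217 genes, 303 were called higher (2.13%) and 535 lower (3.76%), of which 80 and 147 differed at least 2-fold. The median difference of all genes was 0.04. At an unadjusted p under 0.05 in the limma fit, 3743 genes were higher and 2351 lower, together 42.9% of all genes. Unadjusted counts given below for single lists are to be read beside that share. Counts of called genes in a list are to be read beside the 2.13% called higher and 3.76% called lower.

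The arrays of the series fell into 2 sets by the signal of their β-actin control probe sets, whose 3′ minus 5′ difference was 1.53 to 1.93 on 27 arrays and 2.61 to 3.65 on 8. IONT 7 d arrays (1.76 to 1.91) and naive A to C (1.75 to 1.90) were in the first set, and naive D and E (2.98 and 3.19) were in the second, together with the arrays taken 24 h, 3 d and 15 d after IONT. Naive D and E differed from naive A to C in 3737 probe sets (12% of those tested) without any lesion, so the 5 naive arrays were not pooled and differences at 24 h, 3 d and 15 d are given against naive D and E. Of the 838 called genes, 267 higher and 473 lower ones had all 3 IONT 7 d arrays beyond all 5 naive arrays. For comparison, 31.9% of all genes had the 3 IONT 7 d arrays above all 5 naive arrays and 14.1% had them below. The 15 largest increases and 15 largest decreases named below were picked among genes with that separation, so it is no further support for them. As a check of the tissue, rod transducin, Gnat1, had 14.32, 14.49 and 14.50 after IONT 7 d, against 14.42, 14.41 and 14.30 on naive A to C, bright and overlapping.

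RGC genes fell as a group. Of 27 RGC markers measured, 15 were called lower, beside 3.76% of all genes, and 0 higher, with a median difference of -1.19 against 0.04 over all genes, and 1 marker was higher at an unadjusted p under 0.05. Slc17a6, the vesicular glutamate transporter by which RGCs load their synaptic vesicles, had 6.36, 5.29 and 5.96 on the IONT 7 d arrays, against 10.10, 9.92 and 9.97 on naive A to C and 9.90 and 9.72 on naive D and E. The SD of 3 arrays was 0.54 after IONT 7 d and 0.09 on naive A to C. Slc17a6 fell by 4.13 ± 0.19 on the log2 scale (SE), or 17.4-fold (adjusted p = 1.1e-07). The RNA-binding proteins Rbpms and Rbpms2, which mark RGCs across mammalian retinas, behaved alike. Rbpms had 4.72, 4.04 and 4.75 after IONT 7 d, against 7.86, 8.03 and 7.67 on naive A to C (fell by 3.35 ± 0.38, adjusted p = 1.5e-04). Rbpms2 had 4.88, 4.89 and 4.09 after IONT 7 d, against 7.35, 7.30 and 7.43 on naive A to C (fell by 2.74 ± 0.31, adjusted p = 1.6e-04). In both, the highest injured array lay below the lowest of all 5 naive arrays, as the rule that named the largest decreases required.

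Thy1, a surface glycoprotein long used as an RGC marker in rodents, had 6.75, 6.91 and 6.95 after IONT 7 d, against 9.75, 9.62 and 9.47 on naive A to C (fell by 2.75 ± 0.20, adjusted p = 5.1e-06). Naive D and E had 8.16 and 8.59, also above every injured array but -1.24 from naive A to C on the log2 scale, a called difference with no lesion. The copine Cpne4, a calcium-dependent membrane-binding protein found in a subset of RGCs, fell by 2.93 ± 0.20, with 2.80, 2.60 and 2.56 after IONT 7 d, against 5.79, 5.33 and 5.63 on naive A to C and 4.28 and 4.39 on D and E. Neuritin, Nrn1, a membrane-anchored protein that promotes neurite growth, had 3.88, 3.98 and 3.80 after IONT 7 d, against 8.99, 8.71 and 8.69 on naive A to C, a 30.1-fold decrease (adjusted p = 4.0e-06). Rimkla, an enzyme that makes the neuronal dipeptide N-acetylaspartylglutamate and no member of the list, was among the deepest falls too, with 5.79, 5.52 and 5.16 after IONT 7 d, against 8.65, 8.64 and 8.45 on naive A to C (-3.09 ± 0.18), lower in all 3 of its probe sets. Melanopsin, Opn4, the photopigment of the light-sensitive RGCs, was named after its values were seen. It had 4.68, 4.64 and 4.52 after IONT 7 d, against 6.18, 6.32 and 6.15 on naive A to C and 7.15 and 7.01 on D and E, and fell by 1.60 ± 0.18 (adjusted p = 1.4e-04). At 15 d after IONT the Opn4 arrays were 2.03 above naive D and E, while Slc17a6 was -6.38 from them.

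Neurofilament genes, which encode the intermediate filaments of large axons, were lower as a group: 5 of 6 members were called lower, beside 3.76% of all genes, and 0 higher, with a median of -2.67. Nefl, Nefm, Nefh and Prph are also in the list of RGC markers, so the 2 lists are not separate groups. The heavy chain Nefh had 5.18, 5.53 and 4.38 on the injured arrays, against 9.74, 9.82 and 9.92 on naive A to C, and fell 27.8-fold (log2 difference -4.80 ± 0.26, adjusted p = 5.2e-07). The light chain Nefl, with 8.92, 8.60 and 8.67 after IONT 7 d, against 11.75, 11.79 and 11.80 on naive A to C, fell by 3.05 ± 0.13 (adjusted p = 8.2e-08). The medium chain Nefm fell by 2.28 ± 0.14, peripherin (Prph) by 3.92 ± 0.32 and α-internexin (Ina) by 1.12 ± 0.14. Nestin, Nes, a filament protein of progenitors and reactive glia, was the member not called, at 3.48, 3.16 and 3.19 after IONT 7 d and 3.20, 3.18 and 3.18 on naive A to C. Summed on the linear scale, the 6 signals came to 891 to 1127 per injured array, 6361 to 6799 per array of naive A to C and 6130.5 to 7093 per array of D and E.

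**Figure D1:**
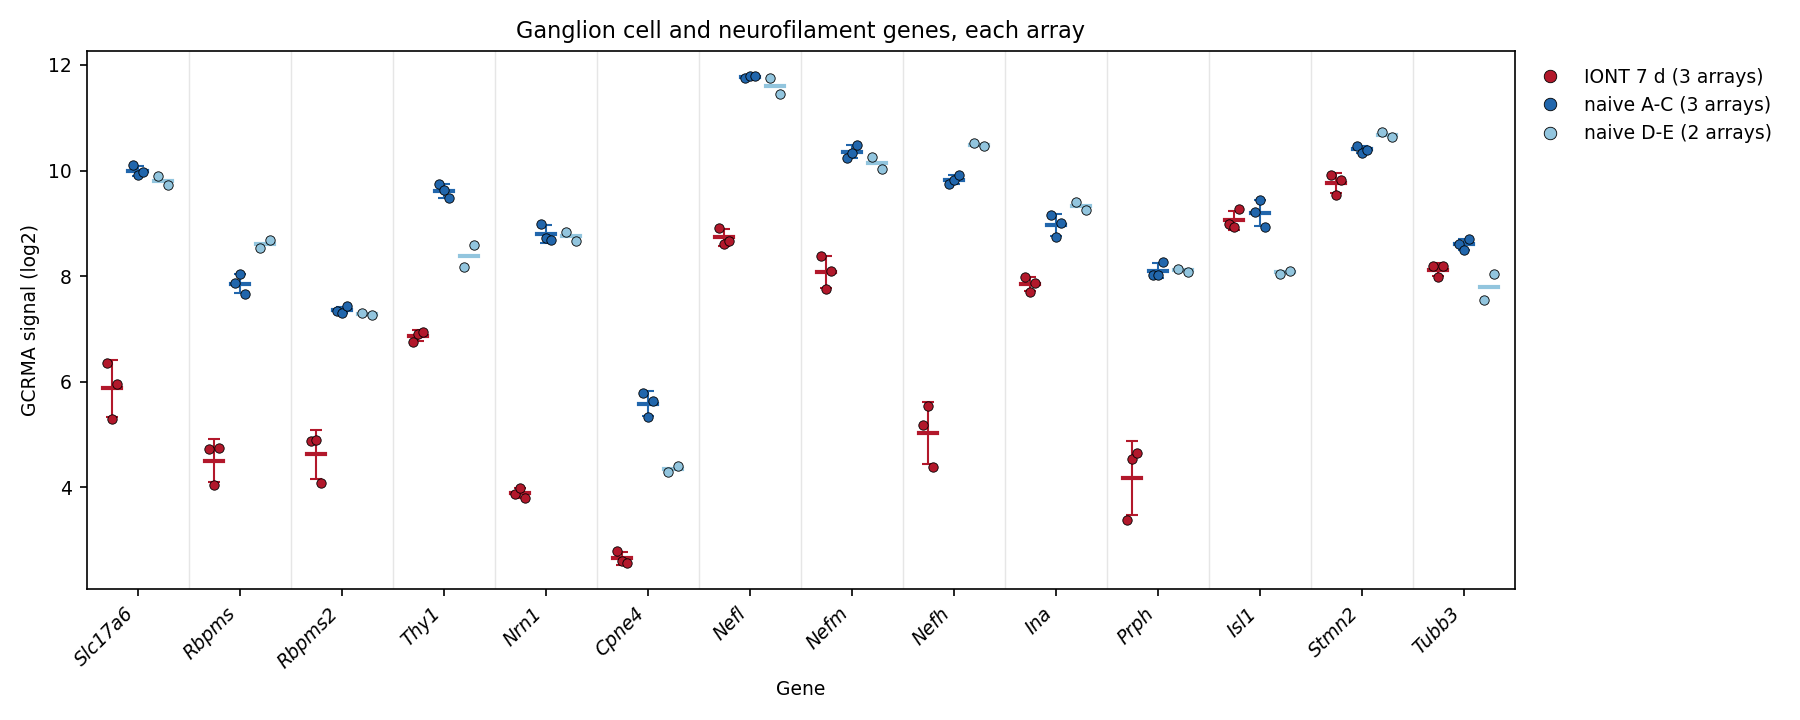
Log2 GCRMA signal (y axis) of 14 ganglion cell and neuronal genes on each IONT 7 d, naive A-C and naive D-E array (points), with the mean (line) and the SD where a group has 3 arrays (bar). Slc17a6, Nefh and Nrn1 lie several units lower after IONT 7 d, while Isl1 and Tubb3 lie close together.

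Not every RGC-linked transcript fell. The LIM homeobox gene Isl1, which bipolar and amacrine cells also express, had 8.98, 8.93 and 9.26 after IONT 7 d, against 9.21, 9.44 and 8.93 on naive A to C, with overlapping groups. Pou4f1, Isl2 and Eomes, transcription factors that specify RGCs, were dim throughout and were not called. Pou4f1 had 2.91 to 2.94 after IONT 7 d and 2.87 to 3.36 on naive A to C, Isl2 had 3.47 to 3.61 after IONT 7 d and 3.38 to 3.41 on naive A to C, and Eomes had 3.27 to 3.47 after IONT 7 d and 4.03 to 4.45 on naive A to C. β3-tubulin, Tubb3, had 8.19, 7.98 and 8.19 after IONT 7 d, against 8.62, 8.50 and 8.70 on naive A to C, and missed the call (difference -0.48 ± 0.14, adjusted p = 0.023). Among 34 tubulin, stathmin and microtubule genes 3 were lower and 1 higher. The lower ones were Stmn2, a microtubule-destabilizing protein of growing and injured neurites (-0.64 ± 0.10), the axonal kinesin Kif5a (-0.71 ± 0.13) and Tppp3 (-2.03 ± 0.23). The injured Tppp3 values (5.00 to 5.63) lay under naive A to C (7.13 to 7.45) but next to the low values of naive D and E (5.64 to 5.68). Tubb2b, a β-tubulin of developing and regrowing neurons, was the higher one, with 9.28, 8.76 and 8.89 after IONT 7 d, against 8.21, 8.14 and 7.97 on naive A to C. The calls of Kif5a and Tubb2b were each lost without at least 1 array, among naive replicates 1, 2 and 3 and IONT 7 d replicates 1, 2 and 3 (adjusted p up to 0.02).

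Decreases among ion channels and receptors were few, and in most of these lists the share was near the 3.76% of all genes called lower. Of 11 sodium channel genes 3 were lower and 0 higher (5 higher and 4 lower at an unadjusted p under 0.05). The α subunit Scn1a had 7.27, 6.57 and 6.64 after IONT 7 d, against 8.61, 8.54 and 8.30 on naive A to C (fell by 1.65 ± 0.18, adjusted p = 1.3e-04), while Scn2a fell by 1.54 ± 0.32 and the β subunit Scn2b by 0.70 ± 0.10. Of 27 potassium channel genes 3 were lower: Kcnip2 (-1.60 ± 0.20) and Kcnip4 (-0.51 ± 0.09), which encode modulators of A-type channels, and Kcnc2 (-1.23 ± 0.12), which encodes a channel of fast-spiking neurons. For calcium channels it was 1 of 19, the β subunit Cacnb2 (-0.44 ± 0.09). The nicotinic receptor subunits Chrna6 (-1.23 ± 0.22) and Chrna3 (-1.15 ± 0.24), both carried by RGCs, were the 2 lower genes among 30 receptors for GABA, glycine and acetylcholine. The calls of Scn2a, Kcnip4, Chrna6, Chrna3 and Cacnb2 were each lost without at least 1 array, among naive replicates 1, 2 and 3, IONT 12 h replicates 1 and 2, IONT 24 h replicates 1 and 2, IONT 48 h replicates 2 and 3, IONT 3 d replicates 1 and 2, IONT 7 d replicates 1, 2 and 3 and IONT 15 d replicates 1 and 2 (adjusted p up to 0.029). Among 22 glutamate receptor genes only the NMDA receptor subunit Grin2a was called, with 4.63, 3.76 and 4.40 on the injured arrays, against 6.08, 5.88 and 6.39 on naive A to C. Naive D and E had 3.52 and 3.88, overlapping the injured arrays, so its direction depended on which naive arrays it was set against. The call of Grin2a was lost without naive replicate 3 (adjusted p = 0.011).

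Synaptic and guidance genes were called about as seldom as genes in general. Of 33 synaptic vesicle and SNARE genes 2 were lower, complexin 1 (Cplx1, -1.13 ± 0.17), a brake and trigger of vesicle fusion, and Vamp1 (-0.85 ± 0.17), a vesicle SNARE. Snap25, a SNARE of every retinal synapse, gave 13.27, 13.36 and 13.39 after IONT 7 d and 13.36, 13.34 and 13.33 on naive A to C and was not called. In 45 axon guidance and adhesion genes 3 were lower, the Slit receptor Robo2 (-1.08 ± 0.16), the semaphorin receptor Plxna2 (-0.69 ± 0.12) and the adhesion protein L1cam (-0.54 ± 0.11). The calls of Vamp1, Plxna2 and L1cam were each lost without at least 1 array, among naive replicates 1, 2 and 3, IONT 7 d replicates 1, 2 and 3, IONT 12 h replicate 1, IONT 48 h replicates 2 and 3 and IONT 15 d replicates 1 and 2 (adjusted p up to 0.023). Only 1 of the 3 probe sets of Vamp1 and of Plxna2 was called. Vegfa, a vascular and neuronal growth factor, was the 1 lower gene among 22 neurotrophins, growth factors and receptors (-0.92 ± 0.13, adjusted p = 8.4e-04).

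Genes of the integrated stress response formed another group of decreases, and Mthfd2, the deepest fall among the genes named by size, was one of them. This response is a program by which cells under amino acid shortage or protein misfolding slow translation, while the transcription factor Atf4 turns on amino acid transport and synthesis and the charging of tRNA. Of 29 measured genes of the program 12 were called lower, beside 3.76% of all genes, and 0 higher, with a median of -0.50, and 3 were higher at an unadjusted p under 0.05. Mthfd2, the mitochondrial enzyme of one-carbon metabolism, had 2.90, 2.41 and 2.86 on the IONT 7 d arrays, against 8.96, 8.99 and 9.27 on naive A to C and 8.91 and 8.68 on D and E. The difference was -6.35 ± 0.25, or 81.6-fold (adjusted p = 4.5e-08). Slc7a1, the transporter of arginine and lysine, had 5.74, 4.60 and 4.16 after IONT 7 d, against 9.38, 9.55 and 9.73 on naive A to C, and fell 26.4-fold (adjusted p = 1.2e-06), the same way in 2 of its 3 probe sets. Every injured array was more than 3 units below the lowest naive array for both genes.

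Chac1, an enzyme that breaks down glutathione, had 5.95, 5.43 and 5.76 after IONT 7 d, against 9.70, 9.66 and 10.04 on naive A to C, and fell by 4.09 ± 0.30 (adjusted p = 5.6e-06). Trib3, a pseudokinase that damps Atf4 activity, had 4.69, 4.62 and 4.31 after IONT 7 d, against 7.91, 7.85 and 7.92 on naive A to C and 7.06 and 7.41 on D and E (fell by 3.35 ± 0.31). Asparagine synthetase, Asns, gave 8.81, 8.59 and 8.78 after IONT 7 d, against 11.30, 11.49 and 11.44 on naive A to C (fell by 2.68 ± 0.17, adjusted p = 1.3e-06). Sestrin 2, Sesn2, a stress-induced brake on mTORC1, fell by 1.94 ± 0.19. Atf4 itself and Ddit3, a transcription factor it induces, were named after their values were seen and differed far less: Atf4 had 12.44, 12.45 and 12.31 after IONT 7 d, against 13.09, 13.19 and 13.16 on naive A to C (-0.75 ± 0.11), and Ddit3 had 9.03, 8.95 and 8.96 after IONT 7 d, against 9.92, 9.94 and 9.92 on naive A to C (-0.95 ± 0.09). Eif4ebp1, which represses cap-dependent translation, was called lower (-2.41 ± 0.37), but naive D and E (4.01 and 4.36) overlapped the injured arrays (4.47, 3.66 and 4.05). Psat1, Phgdh and Shmt2, enzymes of serine and glycine synthesis, were not called (differences -0.25 ± 0.12, 0.24 ± 0.30 and -0.34 ± 0.13). Other amino acid genes, named after their values were seen, were lower too. These were the neutral amino acid transporters Slc1a4 (-2.55 ± 0.20) and Slc38a2 (-1.50 ± 0.12), the proline synthesis enzyme Aldh18a1 (-1.91 ± 0.22) and the alanine transaminase Gpt2 (-1.74 ± 0.23).

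The cytosolic aminoacyl-tRNA synthetases, which load amino acids onto tRNA, were listed after some had been seen to fall, so their count is a description. Of 19 measured, 9 were called lower and 0 higher (2 higher at an unadjusted p under 0.05), with a median of -0.70. Iars1, for isoleucine, had 8.80, 8.67 and 8.37 after IONT 7 d, against 10.82, 10.88 and 10.95 on naive A to C (fell by 2.27 ± 0.17, adjusted p = 5.1e-06). Tars1, for threonine, had 7.91, 8.02 and 7.52 after IONT 7 d, against 9.76, 9.94 and 9.84 on naive A to C, and Aars1, for alanine, had 11.13, 11.19 and 11.34 after IONT 7 d, against 12.29, 12.43 and 12.36 on naive A to C. In these genes the injured arrays all lay under the 5 naive arrays. Yars1 fell by 1.86 ± 0.12, Cars1 by 1.84 ± 0.20, Mars1 by 1.77 ± 0.10, Nars1 by 1.01 ± 0.08, Gars1 by 0.90 ± 0.08 and Eprs1 by 0.70 ± 0.08. Farsa had 8.33, 8.14 and 8.34 after IONT 7 d and 8.36, 8.45 and 8.61 on naive A to C, Hars1 had 8.99, 8.81 and 8.92 after IONT 7 d and 8.84, 8.77 and 8.55 on naive A to C, and Kars1 had 10.23, 10.28 and 10.35 after IONT 7 d, 10.28, 10.36 and 10.32 on naive A to C and 9.58 and 9.67 on D and E. These 3 were not called. Summed over the list, the linear signals were 13036 to 13528 after IONT 7 d, 24214 to 26036 on naive A to C and 29095 to 29315 on D and E.

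**Figure D2:**
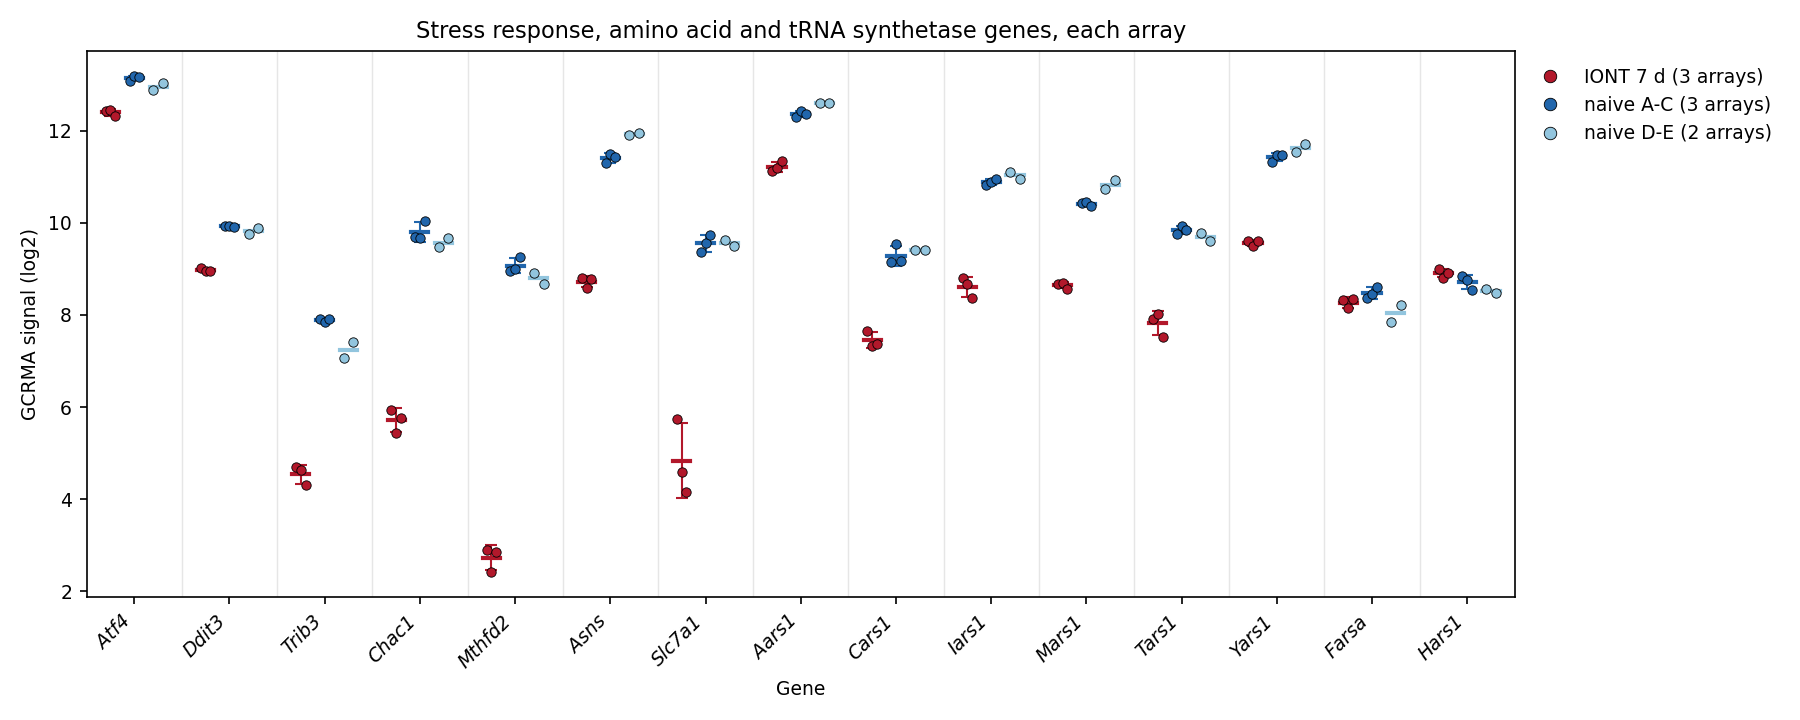
Log2 GCRMA signal (y axis) of 15 genes of the stress response, amino acid metabolism and tRNA charging on each IONT 7 d, naive A-C and naive D-E array (points; line, mean; bar, SD of 3 arrays). Mthfd2 and Slc7a1 fall farthest, Atf4 differs by less than 1 unit, and the Farsa and Hars1 groups lie close together.

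Atf4 binds DNA with C/EBP partners at an element whose core reads TGATGNAA, and the promoters of the members were searched for it. The windows were RefSeq promoters of assembly GRCr8, from 250 bases before to 50 bases after each gene's start, read on both strands, with N for any base. Of all 33469 promoters 1332 held the motif (3.98%). Of the 9 lower synthetases 8 had a promoter entry, and 7 of these held it, while it was found in 0 of 9 promoters of the synthetases that were not called. Among the stress response genes it was in 3 of the 11 promoters of lower genes and in 2 of the 15 of genes not called. Atf4, Ddit3, Asns, Mthfd2, Sesn2 and Eprs1 had no match in this window, which says nothing of sites elsewhere. A match is a run of letters, and binding was not measured. Matches of 9 of the lower genes are shown because they stand beside the falls just described. Each is printed in the direction of its gene with the match in capitals, on whichever strand it lay.
Chac1 (chr3:126795953-126795982, + strand): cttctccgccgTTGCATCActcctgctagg
Trib3 (chr3:161275536-161275565, - strand): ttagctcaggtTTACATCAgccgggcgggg
Slc7a1 (chr12:11664447-11664476, + strand): cggcgcgcggcTGATGAAAccggctcggat
Iars1 (chr17:15193658-15193687, - strand): cactgtcagtaTTGCATCAcctccagacgc
Tars1 (chr2:62114811-62114840, - strand): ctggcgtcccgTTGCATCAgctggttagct
Yars1 (chr5:146820190-146820212, + strand): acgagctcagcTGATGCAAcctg
Cars1 (chr1:208225334-208225363, - strand): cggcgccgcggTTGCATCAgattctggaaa
Mars1 (chr7:65023752-65023781, - strand): gcccgttccggTTGCATCAgcgtgggctcc
Nars1 (chr18:60275778-60275807, - strand): cctaggtgatcTGATGCAAcgcttcagtca

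Chaperones of the endoplasmic reticulum did not share the decrease. Of 18 measured, 1 was higher and 1 lower, with a median of 0.36, beside 2.13% and 3.76% of all genes called. At an unadjusted p under 0.05 in the limma fit, 12 were higher and 2 lower, together 77.8%, beside 42.9% of all genes. The lower gene was Herpud1, an adaptor of the degradation of misfolded proteins, with 9.36, 9.18 and 9.18 after IONT 7 d, against 10.91 to 11.02 on naive A to C (fell by 1.74 ± 0.10, adjusted p = 5.2e-07). Pdia3, a disulfide isomerase, was higher (0.56 ± 0.10). The call of Pdia3 was lost without any one of naive replicates 2 and 3 and IONT 7 d replicate 2 (adjusted p up to 0.013). Hspa5, the central chaperone of this compartment, had 12.09, 12.32 and 12.31 after IONT 7 d, against 11.72, 11.77 and 11.87 on naive A to C, and Hsp90b1 and Calr were 0.44 ± 0.14 and 0.52 ± 0.18 apart, all without a call. Each of these 3 had its injured arrays above all 5 naive arrays, as did 10 of the 18 in the list and 31.9% of all genes.

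Genes that injured neurons switch on went both ways at 7 d. Of 33 regeneration-associated genes 4 were called higher and 4 lower (13 higher and 5 lower at an unadjusted p under 0.05), beside 2.13% and 3.76% of all genes called. The injured arrays lay above all 5 naive arrays in 14 of the 33 and below them in 4, not far from the 31.9% and 14.1% of all genes. Among the 4 genes called higher this separation held for 3, beside 267 of the 303 called higher among all genes. Ecel1, a membrane metallopeptidase that rises in many axotomized neurons, had 6.84, 6.61 and 6.64 after IONT 7 d, against 1.78, 2.07 and 2.08 on naive A to C and 2.08 and 1.78 on D and E. Its difference of 4.72 ± 0.26 (26.3-fold, adjusted p = 5.2e-07) was the widest increase among the genes named by size. Gadd45a, a stress sensor of cell cycle arrest, had 9.96, 9.83 and 10.10 after IONT 7 d, against 8.28, 8.55 and 8.40 on naive A to C (rose by 1.56 ± 0.19). Tnfrsf12a, the receptor of the cytokine TWEAK, rose by 1.77 ± 0.35, and Flrt3, an adhesion protein of growing axons, by 0.89 ± 0.18. The calls of Tnfrsf12a and Flrt3 were each lost without at least 1 array, among naive replicates 1, 2 and 3 and IONT 7 d replicates 1, 2 and 3 (adjusted p up to 0.023). Gap43, the growth cone protein, had 10.13, 9.60 and 9.84 after IONT 7 d, against 8.65, 9.02 and 8.93 on naive A to C (difference 0.99 ± 0.22, adjusted p = 0.0075), and did not reach a B above 0. Sox11, Sprr1a and Gal were not called, with differences of 0.81 ± 0.29, 1.12 ± 1.02 and 1.19 ± 0.39.

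Among 20 AP-1, Atf, Egr and Nr4a transcription factors, which neurons and glia induce within hours of a stimulus, 4 were higher and 2 lower, beside 2.13% and 3.76% of all genes. Egr1 had 9.93, 10.15 and 10.33 on the IONT 7 d arrays, against 6.61, 6.61 and 4.91 on naive A to C and 7.85 and 7.51 on D and E, a 17.0-fold increase (adjusted p = 5.1e-05) in which naive replicate 3 was the lowest array. Fos had 9.69, 9.97 and 9.96 after IONT 7 d, against 7.56, 7.50 and 7.29 on naive A to C (rose by 2.43 ± 0.37). The orphan nuclear receptors Nr4a1 and Nr4a3 rose by 1.12 ± 0.16 and 1.29 ± 0.10, Nr4a3 at low signal (3.28 to 3.86 after IONT 7 d, against 2.28 to 2.31 on naive A to C). Atf3, which injured neurons express at high level in the first days, was lower at 7 d, with 7.19, 6.91 and 7.29 after IONT 7 d, against 9.32, 9.45 and 9.34 on naive A to C and 8.42 and 8.67 on D and E (fell by 2.24 ± 0.13, adjusted p = 5.2e-07). Its partner Jun had 9.44, 9.59 and 9.46 after IONT 7 d, against 11.48, 11.73 and 11.68 on naive A to C (fell by 2.13 ± 0.24), but naive D and E, with 9.36 and 9.73, overlapped the injured arrays. Junb had 6.75, 6.88 and 5.97 after IONT 7 d, against 5.41, 5.23 and 5.65 on naive A to C, and was not called (adjusted p = 0.041).

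Genes of the circadian clock and its output, a list set up after some had been seen to differ, held 2 higher and 3 lower members of 20, beside 2.13% and 3.76% of all genes. The nuclear receptor Rorb, which binds clock elements and is needed for photoreceptor and horizontal cell development, had 9.67, 10.09 and 10.38 after IONT 7 d, against 7.57, 7.74 and 7.58 on naive A to C and 6.56 and 7.10 on D and E (rose by 2.42 ± 0.19, adjusted p = 9.9e-06). The dopamine receptor Drd4, a rhythmic photoreceptor gene, rose by 1.39 ± 0.18. The clock repressors Per1 and Cry1 fell by 1.36 ± 0.22 and 0.90 ± 0.17, and the repressor Nfil3 by 1.11 ± 0.15. The call of Cry1 was lost without any one of naive replicates 2 and 3 and IONT 7 d replicates 1 and 3 (adjusted p up to 0.02). Bmal1, their activator, gave 9.55, 9.77 and 9.90 after IONT 7 d and 10.38, 10.25 and 10.39 on naive A to C and was not called (adjusted p = 0.02). The hour of the day at which retinas were taken is not given in the sources used here.

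Gliosis genes rose as a group. Of 34 measured, 12 were higher, beside 2.13% of all genes, and 0 lower (0 lower also at an unadjusted p under 0.05), with a median of 0.67. Gfap, the filament protein of astrocytes that Müller glia take up after injury, had 11.22, 11.05 and 11.12 after IONT 7 d, against 6.95, 7.16 and 7.13 on naive A to C, a 16.6-fold increase (adjusted p = 5.6e-06). On naive D and E it had 9.24 and 9.32, 2.20 above naive A to C with no lesion. These lay under every injured array, as the rule that named the largest increases required. Ceruloplasmin, Cp, the ferroxidase that glia secrete, had 11.47, 11.30 and 11.42 after IONT 7 d, against 9.19, 9.04 and 9.25 on naive A to C and 10.50 and 10.23 on D and E, in the same order. Lipocalin 2, Lcn2, which binds iron-carrying siderophores, had 9.46, 9.22 and 9.25 after IONT 7 d, against 6.77, 6.37 and 6.63 on naive A to C (rose by 2.72 ± 0.38, adjusted p = 6.2e-04). The serine protease inhibitor Serpina3n, a marker of reactive astrocytes, had 5.51, 6.06 and 5.72 after IONT 7 d, against 2.13, 2.09 and 2.18 on naive A to C, a 12.4-fold increase. Timp1, an inhibitor of matrix metalloproteases, rose by 2.32 ± 0.31, the lysosomal glycoprotein Gpnmb by 2.39 ± 0.41, and Chi3l1, a secreted chitinase-like protein of reactive glia, by 2.40 ± 0.20. Vimentin, Vim, which Müller glia carry at all times, had 12.91, 12.65 and 12.57 after IONT 7 d and 12.51, 12.44 and 12.29 on naive A to C and was not called. Iron handling overlapped with this list: of 25 genes, Lcn2 and Cp were higher, and the metallothionein Mt3 was lower (-0.84 ± 0.16). The injured Mt3 arrays did not all lie below every naive array, D and E included. The call of Mt3 was lost without any one of naive replicates 1, 2 and 3 and IONT 7 d replicates 1, 2 and 3 (adjusted p up to 0.016).

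Stat3, the transcription factor through which cytokines of the gp130 family drive gliosis, had 9.32, 9.66 and 9.83 on the IONT 7 d arrays, against 8.62, 8.46 and 8.50 on naive A to C and 7.35 and 7.94 on D and E (rose by 1.08 ± 0.19, adjusted p = 0.0026). The call of Stat3 was lost without any one of naive replicates 2 and 3 and IONT 7 d replicates 2 and 3 (adjusted p up to 0.014). It was the 1 higher gene of 27 in JAK-STAT signalling. The kinase Tyk2 was the 1 lower (-1.09 ± 0.16), and Jak1 was not called (0.10 ± 0.07). Of 19 Müller glia genes 2 were higher, clusterin (Clu), a secreted chaperone (0.86 ± 0.11), and μ-crystallin (Crym), which binds thyroid hormone (1.19 ± 0.13). Genes of the Müller cells' support functions were not called: glutamine synthetase, Glul, had 12.61, 12.38 and 12.47 after IONT 7 d and 12.85, 12.81 and 12.97 on naive A to C, and Rlbp1, the retinaldehyde-binding protein of the visual cycle, 11.28, 11.34 and 11.41 after IONT 7 d and 11.73, 11.74 and 11.90 on naive A to C. Both had every injured array below naive A to C, as 21.4% of all genes did. Aqp4, the glial water channel, overlapped between the groups. In the sum over the 19 Müller genes the linear signals were 69087 to 73949.6 after IONT 7 d, 59287 to 59932 on naive A to C and 53762 to 55116 on D and E. The brightest probe sets weigh most in such a sum. By gene, the median difference was 0.10, and 3 were higher and 4 lower at an unadjusted p under 0.05 in the limma fit.

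Microglial and macrophage genes were higher. Of 20 measured, 7 were called higher, beside 2.13% of all genes, and 0 lower (0 lower also at an unadjusted p under 0.05), with a median of 1.29, and all 20 had their injured arrays above all 5 naive arrays, beside 31.9% of all genes. Their summed linear signal was 1836 to 2157 after IONT 7 d, 619 to 716 on naive A to C and 713 to 777 on D and E. Of these 20 genes, 13 had a signal above log2 4. The separation from all 5 naive arrays was not particular to this list. It also held for 17 of 18 complement genes, some of which are in both lists, and all 11 lymphocyte and granulocyte genes, only 1 of these 11 above log2 4. Tyrobp, the signalling adaptor of the phagocytic receptor Trem2, had 3.98, 4.75 and 4.55 after IONT 7 d, against 2.30, 2.27 and 3.01 on naive A to C (rose by 1.90 ± 0.25, adjusted p = 4.0e-04). Fcer1g, a chain of immunoglobulin receptors, had 6.82, 7.43 and 7.09 after IONT 7 d, against 5.22, 4.66 and 4.10 on naive A to C (rose by 2.45 ± 0.34). The lysosomal membrane protein Laptm5 and the protease Ctss rose by 1.56 ± 0.23 and 1.19 ± 0.16. The growth factor receptor Csf1r, on which microglia depend, had 6.57, 6.75 and 6.48 after IONT 7 d, against 4.81, 5.43 and 4.84 on naive A to C and 6.24 and 5.45 on D and E. The call of Csf1r was lost without any one of naive replicates 1, 2 and 3 and IONT 12 h replicates 1, 2 and 3 and IONT 24 h replicates 1 and 2 and IONT 48 h replicates 1, 2 and 3 and IONT 7 d replicates 1, 2 and 3 (adjusted p up to 0.025). Aif1, the calcium-binding protein known as Iba1, had 5.14, 5.31 and 5.49 after IONT 7 d, against 3.66, 4.05 and 3.96 on naive A to C, and was not called (adjusted p = 0.031). The microglial receptors Cx3cr1 and Itgam lay near the lowest signals of the array in both groups and were not called. Cx3cr1 had 2.53 to 2.74 after IONT 7 d and 2.46 to 2.48 on naive A to C, and Itgam 2.49 to 2.53 after IONT 7 d and 2.41 to 2.46 on naive A to C.

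Complement genes were higher as well, though C1qa, C1qb, C1qc and Itgam are in the microglial list too. Of 18 measured, 5 were higher, beside 2.13% of all genes, and 0 lower (0 lower also at an unadjusted p under 0.05). C3, the central component, had 7.74, 7.94 and 7.54 after IONT 7 d, against 5.47, 5.61 and 5.16 on naive A to C and 6.69 and 6.87 on D and E, a 5.02-fold increase over A to C (adjusted p = 1.6e-05). Among the starters of the classical cascade, C1qc rose by 1.68 ± 0.25, C1s by 1.57 ± 0.31 and C1r by 0.81 ± 0.15, and their inhibitor Serping1 by 1.56 ± 0.21. The calls of C1s and C1r were each lost without at least 1 array, among naive replicates 1, 2 and 3 and IONT 7 d replicates 1, 2 and 3 (adjusted p up to 0.022). C1qa and C1qb had differences of 1.63 ± 0.35 and 1.39 ± 0.33 and no call.

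MHC class II, which presents peptides to helper T cells, held 3 higher and 1 lower of 8 genes, beside 2.13% and 3.76% of all genes. Cd74 is also in the microglial list. RT1-Da, an α chain, had 8.54, 9.46 and 8.61 after IONT 7 d, against 5.85, 4.14 and 3.86 on naive A to C and 5.69 and 5.80 on D and E, a 19.0-fold increase (adjusted p = 6.8e-05). The invariant chain Cd74 had 7.70, 8.64 and 7.86 after IONT 7 d, against 5.42, 4.40 and 4.45 on naive A to C and 6.34 and 6.12 on D and E, and the β chain RT1-Db1 rose by 1.26 ± 0.23. Naive replicates 2 and 3 were lower than the other naive arrays in RT1-Da, yet even the brightest naive array lay more than 2 units below the injured ones. Ciita, the transactivator of these genes, went the other way (6.23, 6.17 and 6.02 after IONT 7 d, against 7.26, 7.44 and 7.56 on naive A to C, -1.28 ± 0.22). The calls of RT1-Db1 and Ciita were each lost without at least 1 array, among naive replicates 2 and 3 and IONT 7 d replicates 1, 2 and 3 (adjusted p up to 0.018). Class I genes are near-identical copies in the rat, and probe sets of the RT1 family may share signal. Of 17 class I and antigen processing genes 4 were higher, beside 2.13% of all genes: β2-microglobulin (B2m, 12.35, 12.55 and 12.28 after IONT 7 d, against 11.54, 11.19 and 11.18 on naive A to C), the trimming peptidase Erap1 (0.97 ± 0.17), the proteasome activator Psme1 (0.63 ± 0.13) and RT1-CE5 at low signal (3.46 to 3.99 after IONT 7 d, against 2.89 to 3.00 on naive A to C). The calls of Erap1, Psme1 and RT1-CE5 were each lost without at least 1 array, among naive replicates 1, 2, 3, 4 and 5, IONT 7 d replicates 1, 2 and 3, IONT 24 h replicates 1 and 2, IONT 48 h replicate 1, IONT 3 d replicates 1 and 2 and IONT 15 d replicates 1 and 2 (adjusted p up to 0.027).

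Interferon-induced genes varied widely between the injured arrays. Of 29 measured, 1 was called, Ifitm3, a membrane protein that restricts virus entry (9.69, 10.01 and 9.48 after IONT 7 d, against 8.56, 7.95 and 8.00 on naive A to C, 1.56 ± 0.32), and 20 were higher and 0 lower at an unadjusted p under 0.05, with a median of 1.01. The call of Ifitm3 was lost without any one of naive replicates 2, 3, 4 and 5 and IONT 12 h replicates 1, 2 and 3 and IONT 48 h replicates 1, 2 and 3 and IONT 3 d replicates 1 and 2 and IONT 7 d replicates 1, 2 and 3 and IONT 15 d replicates 1 and 2 (adjusted p up to 0.026). Ifi27l2b, a relative of the interferon-induced Ifi27, had 9.72, 9.87 and 8.91 after IONT 7 d, against 6.40, 5.19 and 3.40 on naive A to C and 7.18 and 6.71 on D and E, a 22.7-fold increase (adjusted p = 4.2e-04). IONT 7 d replicate 2 was the highest injured array in several of them: Irf7 had 6.50, 7.86 and 6.66 after IONT 7 d, against 6.12, 5.64 and 5.20 on naive A to C, and, named after their values were seen, Isg15 had 5.84, 8.05 and 6.45 after IONT 7 d, against 4.25, 4.06 and 3.59 on naive A to C, and Mx2 8.41, 9.93 and 7.90 after IONT 7 d, against 6.22, 5.84 and 5.89 on naive A to C. None of these 3 was called (adjusted p = 0.048, 0.01 and 0.011). Of 29 chemokines and cytokines only Litaf, a regulator of cytokine expression, was called higher (9.19, 9.47 and 9.72 after IONT 7 d, against 8.07, 7.79 and 7.92 on naive A to C). Ccl2, the chemokine that draws monocytes, was not called (3.43, 2.90 and 3.21 after IONT 7 d, against 2.81, 2.39 and 2.65 on naive A to C).

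Of 23 lysosomal genes, 8 were higher, beside 2.13% of all genes, and 0 lower (0 lower also at an unadjusted p under 0.05). Among the higher ones, Ctss and Laptm5 are also in the microglial list and Cd63 in the gliosis list. The tetraspanin Cd63 had 12.08, 12.05 and 12.15 after IONT 7 d, against 11.09, 10.99 and 10.98 on naive A to C (rose by 1.08 ± 0.15), the cholesterol exporter Npc2 10.33, 10.26 and 10.17 after IONT 7 d, against 9.51, 9.50 and 9.47 on naive A to C (rose by 0.76 ± 0.11), and the proteases Ctsc and Ctsh rose by 1.49 ± 0.26 and 0.59 ± 0.10. The calls of Ctsc and Ctsh were each lost without at least 1 array, among naive replicates 2 and 3 and IONT 7 d replicates 1 and 2 (adjusted p up to 0.014). Ctsd, the most widespread cathepsin, was not called (0.28 ± 0.17). Of 22 matrix protease genes, Timp1 and the proteoglycan-cleaving Adamts4 (2.24 ± 0.27) were higher, and of 19 annexins and S100 proteins, S100a3 (2.90 ± 0.40), Anxa3 (1.40 ± 0.30) and S100a1 (0.75 ± 0.14). The calls of Anxa3 and S100a1 were each lost without at least 1 array, among naive replicates 1, 2, 3, 4 and 5, IONT 12 h replicates 1, 2 and 3, IONT 24 h replicates 1 and 2, IONT 48 h replicates 1, 2 and 3, IONT 7 d replicates 1, 2 and 3 and IONT 15 d replicates 1 and 2 (adjusted p up to 0.031). The myeloid leukemia factor Mlf1, named for its size, had 9.17, 9.55 and 9.71 after IONT 7 d, against 6.68, 6.50 and 6.34 on naive A to C (rose by 2.97 ± 0.32). No member of the collagen, laminin and integrin list was called (0 of 32 in limma, 7 higher and 0 lower at an unadjusted p under 0.05).

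**Figure D3:**
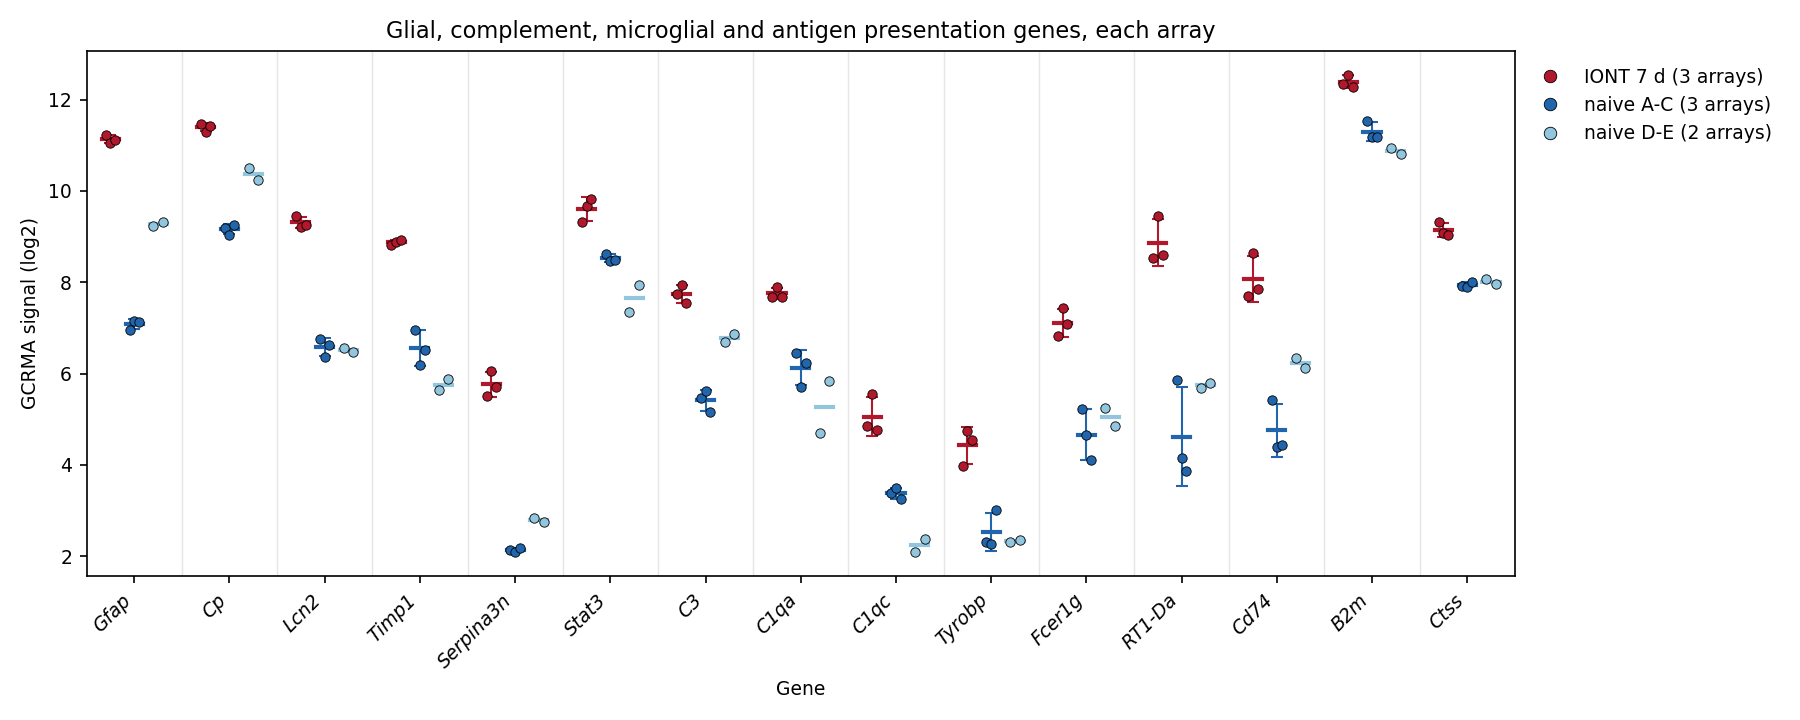
Log2 GCRMA signal (y axis) of 15 glial, complement, microglial and antigen presentation genes on each IONT 7 d, naive A-C and naive D-E array (points; line, mean; bar, SD of 3 arrays). All IONT 7 d means lie above both naive groups, and naive D-E lies above naive A-C for Gfap, Cp and C3.

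Markers of other retinal neurons held 0 to 2 calls per list. The share called was 16.7% of cone and 13.3% of amacrine cell genes, beside 5.89% of all genes. In lists as short as the other 3, 0 calls is near that share. Of 19 rod genes 0 were called (3 higher and 4 lower at an unadjusted p under 0.05), of 10 bipolar genes 0 (0 higher, 1 lower) and of 8 horizontal cell genes 0 (1 higher, 1 lower). The rod phosphodiesterase Pde6b had 13.66, 13.78 and 13.82 after IONT 7 d and 13.95, 13.95 and 13.93 on naive A to C. In bipolar cells the glutamate receptor Grm6 had 6.90, 6.91 and 7.23 after IONT 7 d and 7.24, 7.29 and 7.23 on naive A to C, and its channel Trpm1 9.69, 9.81 and 10.05 after IONT 7 d and 9.61, 9.94 and 9.79 on naive A to C, with overlapping groups for Trpm1. Among 12 cone genes the G protein subunit Gnb3 was higher (0.76 ± 0.16) and the exchanger Slc24a2 lower (-0.66 ± 0.11). Cone arrestin, Arr3, was not called (-0.47 ± 0.31). Of 15 amacrine cell genes Calb2, the calcium buffer calretinin, which RGCs also carry, was lower (-0.83 ± 0.14), with naive D and E (11.04 and 11.47) reaching the injured level (10.98 to 11.16), and Ebf2 was higher at low signal (0.55 ± 0.10). The calls of Gnb3, Slc24a2 and Ebf2 were each lost without at least 1 array, among naive replicates 1, 2, 3, 4 and 5, IONT 12 h replicate 2, IONT 24 h replicates 1 and 2, IONT 48 h replicates 1, 2 and 3, IONT 3 d replicates 1 and 2 and IONT 7 d replicates 1, 2 and 3 (adjusted p up to 0.026). The GABA-synthesizing enzymes Gad1 and Gad2 were not called (-0.13 ± 0.10 and 0.30 ± 0.39).

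Markers of tissue outside the neural retina were read as a check on the dissection. No gene was called among 22 of the lens and anterior eye, 10 of the pigment epithelium, 11 of skeletal muscle, 3 of red blood cells, 17 of vessels, 9 of oligodendrocytes and 11 of lymphocytes and granulocytes, where 0, 1, 2, 1, 4, 6 and 8 were higher and 0 of each lower at an unadjusted p under 0.05. Only 1 of the 11 lymphocyte and granulocyte genes had a signal above log2 4, and their sum was 79.7 to 97.2 after IONT 7 d and 67.8 to 73.0 on naive A to C. Lens signal varied between arrays of each group (sum 130521 to 211027 after IONT 7 d, 101522 to 194273 on naive A to C) and its part in other results was not tested.

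Genes of cell death stayed within the call threshold at 7 d. Of 27 BCL2 family and caspase genes 0 were called (7 higher and 2 lower at an unadjusted p under 0.05). The survival genes Mcl1 and Bcl2l1 had differences of -0.24 ± 0.20 and -0.15 ± 0.18, and Bcl2 was dim (2.53 to 2.77 after IONT 7 d and 2.44 to 2.46 on naive A to C). Among 18 p53 targets Gadd45a was higher and Sesn2 lower, while Cdkn1a, the cell cycle inhibitor p21, was not called (0.40 ± 0.19). Of 37 cell cycle genes 4 were lower: Prc1, a spindle protein (-1.40 ± 0.18), Tyms, the thymidylate synthase (-1.25 ± 0.15), the replication helicase subunit Mcm7 (-0.39 ± 0.06) and the retinoblastoma gene Rb1 (-0.40 ± 0.06). The mitotic kinesin Kif11 was higher (1.67 ± 0.28) at low signal (3.16 to 4.09 after IONT 7 d, against 1.99 to 2.20 on naive A to C), and Ccnd1, cyclin D1, was not called (0.57 ± 0.30). The call of Kif11 was lost without any one of naive replicates 2 and 3 and IONT 7 d replicate 2 (adjusted p up to 0.011).

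Housekeeping lists held few calls. Of 46 oxidative phosphorylation genes 2 subunits of complex I were higher, Ndufa4 (0.48 ± 0.09) and Ndufc1 (0.34 ± 0.07). None of 31 ribosomal protein, 22 glycolysis and 29 proteasome genes was called by limma (5, 1 and 2 higher and 0, 4 and 4 lower at an unadjusted p under 0.05). Of 18 heat shock genes Hspb2 was higher (0.77 ± 0.16), while Hspb1, which injured RGCs and glia express, had 9.63, 8.15 and 8.24 after IONT 7 d, against 6.98, 7.82 and 6.01 on naive A to C, with replicate 1 far above the other 2 and no call. In the remaining lists the lower genes were the 14-3-3 protein Ywhah (1 of 7, -0.77 ± 0.09), the BMP and TGF-β mediator Smad4 (1 of 28, -0.33 ± 0.06) and the squalene synthase Fdft1 (-0.61 ± 0.13), beside which Clu was the higher one of 24 lipid genes. The injured Fdft1 arrays did not all lie below every naive array, D and E included. The calls of Ndufa4, Ndufc1, Hspb2, Smad4 and Fdft1 were each lost without at least 1 array, among naive replicates 1, 2, 3, 4 and 5, IONT 7 d replicates 1, 2 and 3, IONT 12 h replicates 1, 2 and 3, IONT 48 h replicates 1 and 3, IONT 3 d replicates 1 and 2 and IONT 15 d replicates 1 and 2 (adjusted p up to 0.028).

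**Figure D4:**
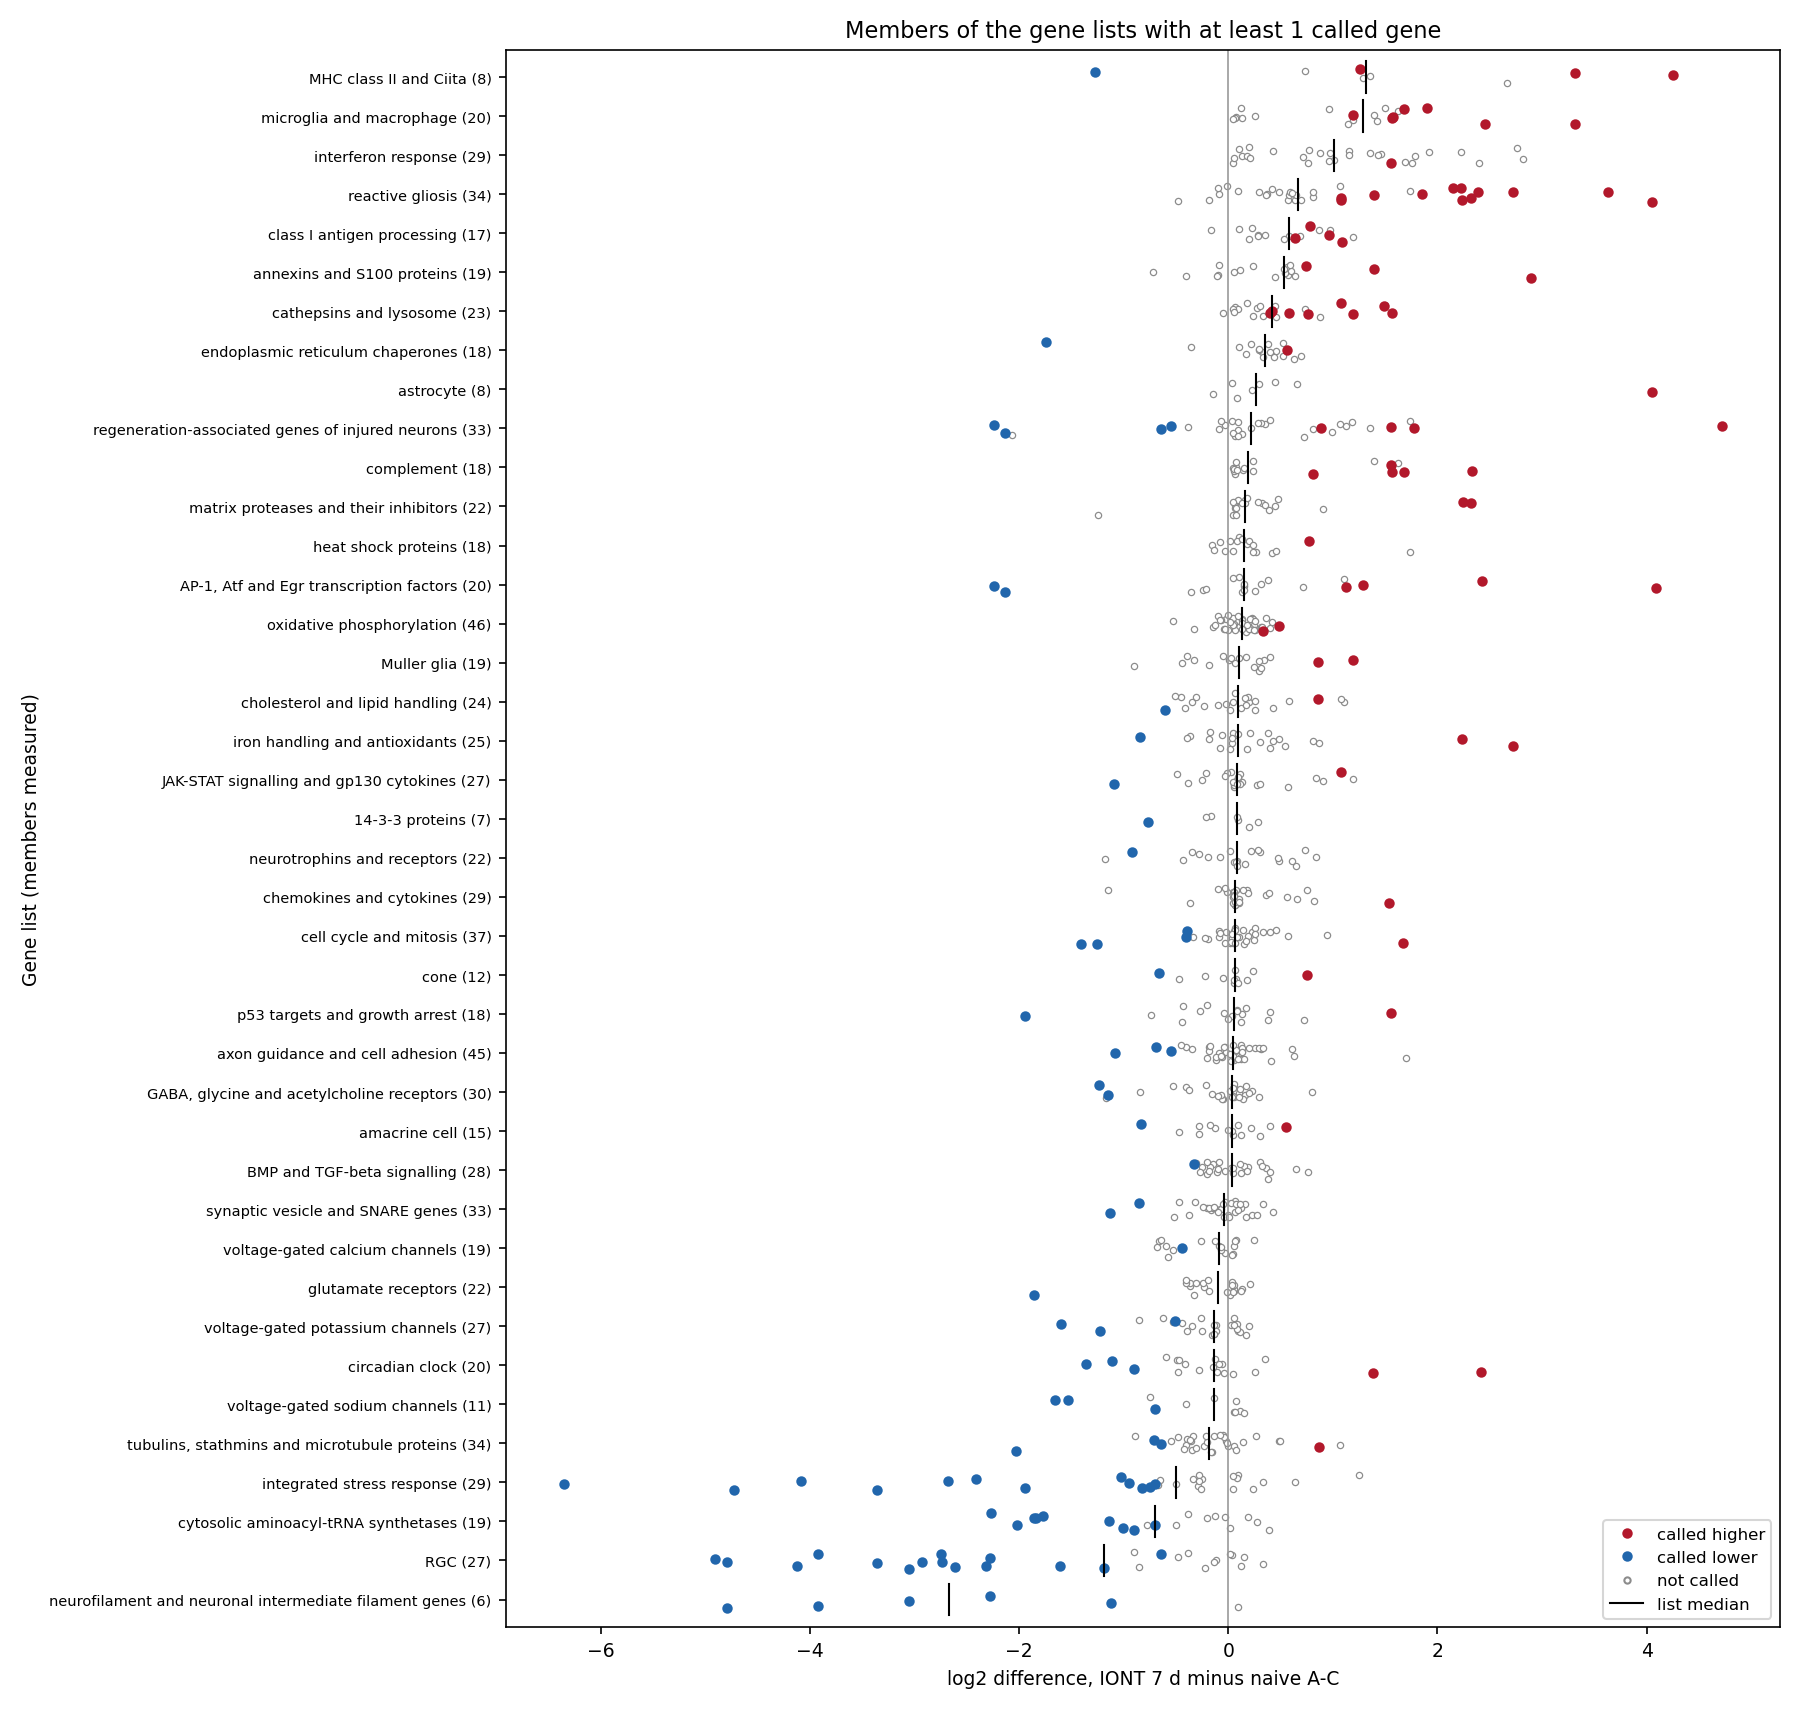
Log2 difference, IONT 7 d minus naive A-C (x axis), of every measured member (points) of each gene list with at least 1 called gene (rows, sorted by median), with called members filled, the others open and the list median as a bar. Neurofilament and RGC genes lie farthest to the left, with medians of -2.67 and -1.19, and MHC class II and microglial genes farthest to the right, with medians of 1.32 and 1.29. Some genes are members of more than 1 list.

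Against the earlier retinas of the same lesion, 379 probe sets were higher at 7 d than at 48 h (1.22%) and 472 lower (1.52%). Of the genes 531 differed (3.73%), 193 higher (1.36%) and 338 lower (2.38%). This contrast uses no naive array. Genes of RGCs were lower at 7 d than at 48 h. Slc17a6 had 6.36, 5.29 and 5.96 at 7 d, against 9.54, 9.69 and 9.47 at 48 h (-3.70 ± 0.19, adjusted p = 6.6e-07), and Prph 3.37, 4.53 and 4.64 at 7 d, against 7.89, 8.16 and 8.38 at 48 h (-3.97 ± 0.32). Nefh was -3.25 ± 0.26 apart. At 12 h and 48 h, Slc17a6 differed from naive A to C by -0.51 and -0.43, and at 15 d by -6.38 from naive D and E, further from naive than at 7 d. Of the 27 RGC markers 11 were lower at 7 d than at 48 h and 0 higher.

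Stress response genes fell between 48 h and 7 d as well, with 10 of 29 lower, beside 2.38% of all genes, and 0 higher. Mthfd2 had 2.90, 2.41 and 2.86 at 7 d, against 6.74, 7.06 and 6.91 at 48 h (-4.18 ± 0.25, adjusted p = 1.2e-06), and Slc7a1 5.74, 4.60 and 4.16 at 7 d, against 7.99, 8.01 and 8.21 at 48 h (-3.24 ± 0.29). They did not follow the course of the RGC genes to the end: at 15 d Mthfd2 had 9.05 and 9.14 and differed from naive D and E by 0.30, and Slc7a1 by 0.34, Chac1 by 0.52 and Trib3 by 0.80. Atf3 had 10.79, 11.01 and 10.65 at 12 h (1.45 from naive A to C), 9.27, 9.46 and 9.52 at 48 h and 7.19, 6.91 and 7.29 at 7 d, which left it -2.29 ± 0.13 under the 48 h level (adjusted p = 6.6e-07).

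Some glial and inflammatory genes were lower at 7 d than at 48 h. Ccl2 was -5.24 ± 0.86 at 7 d minus 48 h (adjusted p = 0.0026), its 48 h arrays having 7.67, 9.07 and 8.49. That call was lost without IONT 48 h replicate 2 or 3 or IONT 7 d replicate 2. The matrix metalloprotease Mmp3 had 2.38, 2.29 and 2.34 at 7 d, against 5.26, 6.96 and 7.73 at 48 h (-4.32 ± 0.57), and Srpk3, a kinase of splicing factors known from muscle, 3.00, 3.03 and 3.26 at 7 d, against 6.71, 7.41 and 7.23 at 48 h, that call being lost without IONT 48 h replicate 2. Stat3 was -1.35 ± 0.19 apart (adjusted p = 9.1e-04). Lcn2 had 9.46, 9.22 and 9.25 at 7 d, against 11.14, 11.60 and 11.31 at 48 h, a call (-2.04 ± 0.38, adjusted p = 0.0053) lost without any one of the 6 arrays, as was that of Serpina3n (-2.16 ± 0.44). Gfap had 11.22, 11.05 and 11.12 at 7 d, against 11.97, 12.16 and 12.22 at 48 h, and was not called (adjusted p = 0.059). Ecel1, by contrast, had 6.84, 6.61 and 6.64 at 7 d, against 5.71, 5.30 and 5.02 at 48 h (1.35 ± 0.26), and was called higher, a call lost when any 1 of the 6 arrays but IONT 48 h replicate 1 was left out.

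Some photoreceptor genes were higher at 7 d than at 48 h. Of 19 rod genes 7 were higher and 0 lower, and of 12 cone genes 2 were higher and 1 lower, beside 1.36% and 2.38% of all genes. Of the higher ones named here, Opn1sw, Gnat1, Hk2, Tmem116 and Esrrb were not called at 7 d against naive A to C. The short-wavelength cone opsin, Opn1sw, had 9.16, 9.59 and 9.42 at 7 d, against 6.17, 5.84 and 5.76 at 48 h (3.47 ± 0.19, adjusted p = 6.6e-07), with 9.39, 9.04 and 9.21 on naive A to C. Gnat1 was 1.47 ± 0.11 higher than at 48 h (13.19, 12.74 and 12.98). The cone G protein subunit Gnb3 went the other way, with 9.87, 9.77 and 9.74 at 7 d, against 11.01, 11.22 and 11.27 at 48 h (-1.37 ± 0.16, adjusted p = 2.0e-04). Hexokinase 2, Hk2, the glycolytic enzyme of photoreceptors, was 2.71 ± 0.33 higher, and Tmem116, a membrane protein, 2.53 ± 0.26. Esrrb, a nuclear receptor that rods need for survival, had 11.31, 11.89 and 11.86 at 7 d, against 7.94, 8.04 and 8.16 at 48 h (3.64 ± 0.27), and Rorb, Nr4a3 and the cAMP phosphodiesterase Pde8a were 1.88 ± 0.19, 1.27 ± 0.10 and 2.85 ± 0.26 higher.

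**Figure D5:**
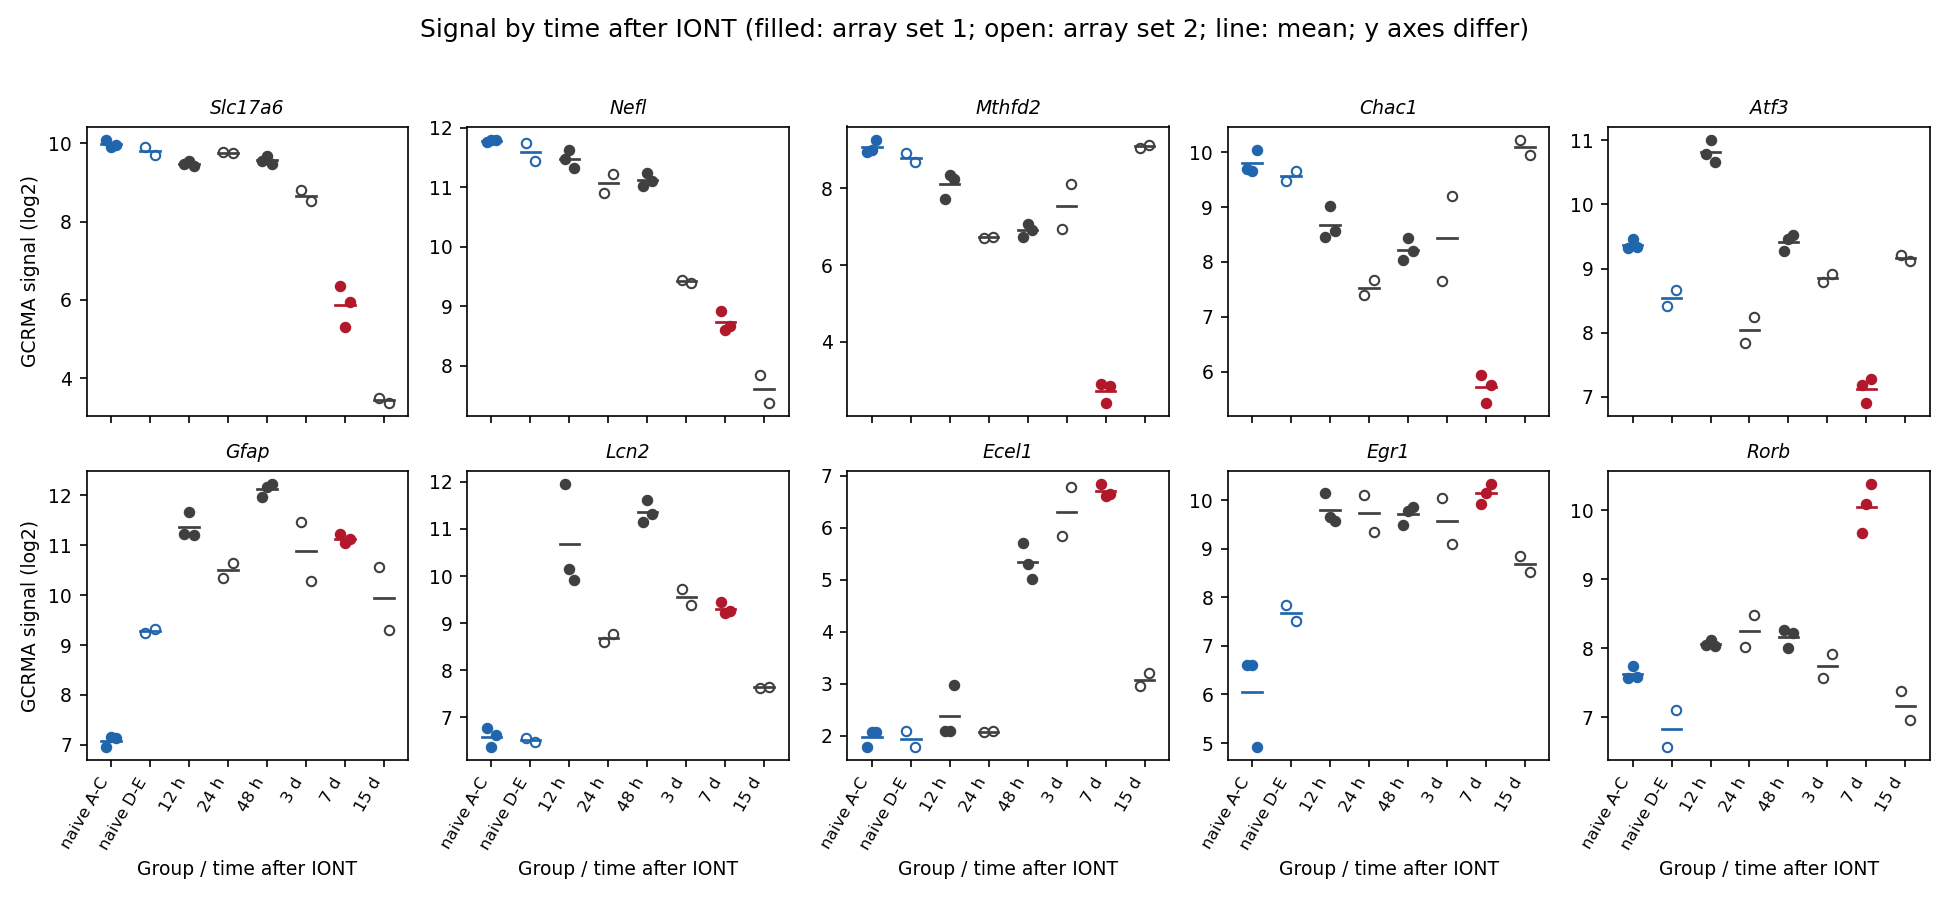
Log2 GCRMA signal (y axis, different for each gene) of 10 genes by group and time after IONT (x axis), 1 point per array with the mean as a line; filled points are arrays of the first set and open points arrays of the second. Slc17a6 and Nefl are lower still at 15 d, whereas Mthfd2 and Chac1 are lowest at 7 d, Atf3 is highest at 12 h, and Rorb stands highest at 7 d.

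Transection and crush were compared at 7 d. Far fewer probe sets differed between the lesions than from naive: 36 were higher after IONT 7 d than after IONC 7 d (0.116%) and 31 lower (0.0999%), and 20 and 19 genes (0.141% and 0.134%). Esrrb had 11.31, 11.89 and 11.86 after IONT 7 d, against 8.96, 9.42 and 9.24 after IONC 7 d (2.48 ± 0.26, adjusted p = 4.4e-04). Pde8a, with 7.61, 7.74 and 8.03 after IONT 7 d, against 5.93, 5.60 and 5.62 after IONC 7 d, was 2.08 ± 0.25 higher, the ceramide kinase Cerk 1.47 ± 0.16 and Nr4a3 1.23 ± 0.09. Atf3 was lower, with 7.19, 6.91 and 7.29 after IONT 7 d, against 8.28, 8.23 and 8.29 after IONC 7 d (-1.14 ± 0.12, adjusted p = 4.4e-04), as was the secreted neuropeptide precursor Vgf, with 7.63, 7.41 and 7.12 after IONT 7 d, against 8.33, 8.67 and 8.65 after IONC 7 d (-1.16 ± 0.13). These 6 calls held when any 1 of the 6 arrays was left out. Against naive A to C, Pde8a and Cerk were 1.54 ± 0.26 and 0.88 ± 0.15 higher, calls that were lost without naive replicate 2, and for Cerk also without IONT 7 d replicate 2.

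Rorb, with 9.67, 10.09 and 10.38 after IONT 7 d, against 8.70, 7.32 and 7.54 after IONC 7 d (2.19 ± 0.28), and Nr4a1 (1.23 ± 0.16) were higher after transection, calls lost without IONC 7 d replicate 2. Mthfd2 had 2.90, 2.41 and 2.86 after IONT 7 d, against 4.57, 6.58 and 7.21 after IONC 7 d (-3.40 ± 0.47, adjusted p = 0.003), and was called lower, except without IONT 7 d replicate 2 or IONC 7 d replicate 2. Slc7a1 (-2.82 ± 0.45), Slc17a6 (6.36, 5.29 and 5.96 after IONT 7 d, against 7.69, 6.80 and 7.20 after IONC 7 d, -1.36 ± 0.22), the SET-domain protein Setmar (-1.17 ± 0.17) and the WD-repeat protein Wdr31 (1.49 ± 0.22) were called with all 6 arrays and lost the call in 4 of the 6 cases with 1 array left out, IONT 7 d replicates 2 and 3 among them each time. The calls of Herpud1 (-0.90 ± 0.12) and Aars1 (-0.82 ± 0.13) were lost in 3 and 5 of the 6. Slc17a6 was the 1 called gene of 27 RGC markers. Nefl and Nefh had differences of -0.58 ± 0.13 and -1.17 ± 0.27 and no call, and no gliosis, complement, MHC, microglial or lysosomal gene was called between the lesions. For Gfap the values were 11.22, 11.05 and 11.12 after IONT 7 d, against 11.98, 11.11 and 10.65 after IONC 7 d.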

How the data were processed

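RNA of 4 pooled retinas per sample was hybridised to Affymetrix RAE230.2 arrays. The authors normalized the arrays with GCRMA and deposited 1 log2 value per probe set. Neither the version nor whether all arrays were normalized together is stated in the sources used here. Of 31099 probe sets, 57 controls were left out. Gene symbols came from the platform annotation: 20826 tested probe sets had 1 symbol, 436 several and 9780 none. A gene was its 1-symbol probe set with the highest mean over the 35 arrays.

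The deposited values were fitted with limma 3.58.1 (R 4.3.3, Python 3.11.15), with 1 coefficient per group over 20 arrays (naive A to C and D to E apart, and 15 IONT arrays), plus 3 IONC 7 d arrays for that contrast. Array sets were split at a β-actin 3′ minus 5′ difference of 2, which lies in the gap between them. Calls followed the authors' rule: adjusted p under 0.01, B above 0 and at least 1.2-fold. The fit was tested on simulated data. Alternatives are given in the closing section. Depth has no counterpart for arrays, where the number of arrays limits precision.

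Members and gene lists were chosen with earlier results of these data known. Named were the 15 largest increases and decreases beyond all 5 naive arrays, the 5 largest differences each way from IONT 48 h and from IONC 7 d, and for each list up to 6 called genes and up to 4 not called. This rule gave 340 genes, of which 162 that were not called against naive A to C are not printed. The tRNA synthetase and clock lists, and the genes Atf4, Ddit3, Slc1a4, Slc38a2, Aldh18a1, Gpt2, Isg15, Mx2, Eprs1, Gars1, Nars1 and Opn4, were added after their values were seen. Promoter sequences came from RefSeq (assembly GRCr8), and 1 promoter holding the motif is not reported here.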

Additional observations from a re-analysis of the deposited data

Results flagged for a closer look

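These are results in which an array stood apart from the others of its group, by Dixon's 95% critical value among the 5 naive arrays, or in which a direct test separated IONT 7 d from another lesion group. Nefl had 11.44 on naive replicate 5, against 11.75 to 11.80 on the others, and Cacnb2 10.36 on naive replicate 4, against 10.50 to 10.53. Both arrays belong to the second set. Tyrobp had 3.01 on naive replicate 3, against 2.27 to 2.36 on the others, and Mmp3 2.20 on naive replicate 1, against 2.17 on the others. In arrays of a single population, chance alone marks about 1 group in 20 in this way. Every gene named here was screened, and the 5 naive arrays were taken as 1 group although their 2 sets differ.

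At 7 d minus 48 h after transection, limma called higher Esrrb (3.64), Opn1sw (3.47), Pde8a (2.85), Hk2 (2.71), Tmem116 (2.53), Rorb (1.88), Gnat1 (1.47), Ecel1 (1.35) and Nr4a3 (1.27). Called lower were Ccl2 (-5.24), Mmp3 (-4.32), Mthfd2 (-4.18), Srpk3 (-4.02), Prph (-3.97), Slc17a6 (-3.70), Nefh (-3.25), Slc7a1 (-3.24), Atf3 (-2.29), Serpina3n (-2.16), Lcn2 (-2.04), Gnb3 (-1.37) and Stat3 (-1.35). Leaving out 1 of the 6 arrays ended the calls of Lcn2 and Serpina3n every time, of Ecel1 in 5 cases, of Ccl2 in 3 (IONT 48 h replicates 2 and 3 and IONT 7 d replicate 2) and of Srpk3 in 1 (IONT 48 h replicate 2).

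For transection minus crush at 7 d, the higher genes were Esrrb (2.48), Rorb (2.19), Pde8a (2.08), Wdr31 (1.49), Cerk (1.47), Nr4a1 (1.23) and Nr4a3 (1.23). The lower genes were Mthfd2 (-3.40), Slc7a1 (-2.82), Slc17a6 (-1.36), Setmar (-1.17), Vgf (-1.16), Atf3 (-1.14), Herpud1 (-0.90) and Aars1 (-0.82). The calls of Wdr31, Slc7a1, Slc17a6, Setmar, Herpud1 and Aars1 were lost in 3 to 5 of the 6 cases with 1 array left out, Mthfd2 in 2 (IONT 7 d replicate 2 and IONC 7 d replicate 2), and Rorb and Nr4a1 in 1 (IONC 7 d replicate 2). The hour of the day at which either group was taken is not given in the sources used here.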

How the results depend on the processing

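The count of 1549 called probe sets against naive A to C was 4628 at an adjusted p under 0.05 without the limit on B, 907 at 1.5-fold, 400 at 2-fold, 989 (281 higher, 708 lower) with low values filtered out, 303 (73 higher, 230 lower) with all 35 arrays in the fit, 807 (240 higher, 567 lower) with only the arrays of the 2 groups, 4228 with array weights and 5092 with naive D and E alone as the reference. Leaving out 1 array gave 706 (without naive replicate 2) to 1671, with 783 without naive replicate 3 and 903 without IONT 7 d replicate 2. Lower calls outnumbered higher ones in most of these settings, but higher calls outnumbered lower ones without IONT 7 d replicate 3 (992 and 616), with all 5 naive arrays as 1 group (906 and 833) and after cyclic loess (628 and 593). Against IONT 48 h the 851 became 2073 at p under 0.05 without B, 219 with all 35 arrays and 107 with the 2 groups alone, and 434 (without IONT 48 h replicate 2) to 1016 with 1 array left out, and the balance of 379 higher and 472 lower turned with all 35 arrays (145 and 74), with all of them but IONC 12 h replicate 2 (418 and 405) and without IONT 7 d replicate 1 (342 and 284) or 3 (590 and 426). Against IONC 7 d the 67 became 206, 17 and 0 under the same 3 settings (0 by limma, with 3382 at an unadjusted p under 0.05), 17 (without IONC 7 d replicate 2) to 103 (without replicate 1, 34 higher and 69 lower) with 1 array left out, and 40 higher and 19 lower, not 36 and 31, after cyclic loess. For naive D and E against A to C the 3737 became 7544 at p under 0.05 without B, 2318 with all 35 arrays and 2400 (without naive replicate 4) to 3103 with 1 array left out. The cause of these shifts was not tested.

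Of 132 called genes named here, 78 lost the call with all 35 arrays in the fit, 50 with the 2 groups alone and 37 with naive D and E alone. Of these 132, Grin2a changed sign in a setting, at 0.56 with naive D and E alone, and the other called genes kept theirs in every setting run. Of the 58 named genes that were not called, 21 changed sign in at least 1 setting. With naive D and E alone these included Kars1, at 0.66 and then past the threshold, Isl1 (0.99), Mcl1 (0.53), Tubb3 (0.33), Bmal1 (0.33) and Bcl2l1 (0.27). With the replicate number as a block, 1342 probe sets were called against naive A to C, 649 against IONT 48 h and 56 against IONC 7 d, and 12 of the named calls were lost. The labels do not say whether the numbers pair the arrays. Same-numbered deviations of IONT 7 d and naive A to C correlated weakly, at 0.12, -0.09 and 0.15. The same number gave the highest correlation for IONT 7 d replicates 1 and 3 but not for replicate 2. For naive D and E against naive A to C, and for that comparison alone, no paired analysis was possible because the 2 groups share no replicate number. Signals near the bottom of the scale limit what can be seen: 416 of the 734 higher probe sets were above log2 4 on at most 1 of the 20 fitted arrays, against 11 of the lower ones.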
